A study of Homo sapiens with 48 samples.

Results

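The decay of mRNA was followed in control cells of the neuroblastoma line Kelly, in which new transcription had been stopped with actinomycin D. The libraries compared were 8 of the 48 of the series: Kelly cells kept in DMSO for 3 or 6 days, then given 10 µg/ml actinomycin D for 0 h (4 libraries, 2 from each duration) or for 6 h (4 libraries, likewise). They were chosen by their labels alone, namely line, vehicle and hours of actinomycin D. Kelly is an established, MYCN-amplified, wild-type line per the labels, and DMSO was the vehicle of the METTL3 inhibitor STM2457 (8 µM) used in the rest of the study. Inhibitor-treated cells are not described. The 4 Kelly DMSO libraries at 3 h are given as values beside some genes, and the 8 NGP DMSO libraries at 0 h and 6 h serve for comparison with another MYCN-amplified line. Whether the 2 libraries of a group come from separate cultures is not given in the labels, so p-values measure the spread between these libraries, which may be technical.

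Actinomycin D blocks RNA polymerases by binding DNA, so an mRNA that is present at 6 h was mostly made before the drug. The share that is left reflects how slowly it is degraded. The libraries were made from poly(A)-selected RNA. An mRNA without its tail but not yet degraded may therefore count as lost, and that part was not measured. Degradation usually starts with shortening of the poly(A) tail and goes on by removal of the cap and digestion from both ends. Its speed is set by sequences in the mRNA and the proteins that read them. Transcripts of growth-response genes and of many transcription factors are known to be short-lived, and those of metabolic and ribosomal genes long-lived. Replication-dependent histone mRNAs are a class of their own: they end in a conserved stem-loop in place of a poly(A) tail, and are degraded when DNA replication stops.

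The 8 libraries held 13807701 to 19291613 fragments in genes. Adrenergic neuroblastoma markers were present, 9 of 9 at 1 CPM (CPM being the depth-scaled count, here with TMM-scaled library sizes) or more at 0 h, and a summed level of 12758 to 14917 CPM at 0 h. Of 8 mesenchymal-type markers 6 reached 1 CPM, with a summed level of 233 to 265 CPM. Of 5 leukocyte markers 0 reached 1 CPM at 0 h. PTPRC was at 0 to 1.21 CPM there, and the T-cell gene CD3E was at 0 in the 8 libraries. The hepatic markers ALB and APOA1 were also at 0. Of the other lists, 1 of 3 endothelial, 1 of 3 epithelial, 1 of 4 fibroblast and 2 of 3 glial markers reached 1 CPM. The fibroblast gene COL1A1 was at 3.60 to 38.3 CPM at 0 h. All these marker counts use the mean of the 4 libraries at 0 h. TMM scaling sets the typical mRNA to no change, so "higher" at 6 h means higher relative to the typical mRNA, as slower loss would give. Whether any such mRNA was also made anew was not tested. Scaling to the ERCC spike-in RNA instead moved the median log2 change of all genes from −0.02 to −0.86, and values below are relative to the typical mRNA unless the spike-in scale is named. Gene fragments per spike-in fragment at 6 h were 84.6% of the 0 h value at 3 days and 46.8% at 6 days. The labels do not state how or when the spike-in was added, so whether it was set by cells, total RNA or poly(A) RNA, and hence what a spike-in value measures of mRNA loss, is not known.

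With duration as a covariate, 6106 of 13224 genes tested (46.2%) differed between 6 h and 0 h at an adjusted p under 0.05 in edgeR's quasi-likelihood test. Of these, 3145 (23.8% of the genes tested) were lower and 2961 (22.4%) were higher. On the spike-in scale 7914 were lower and 18 higher, so that 99.8% of calls were decreases there against 51.5% with TMM. Scaling to library size alone gave 4024 lower and 1810 higher, or 69.0% decreases. The distribution was lopsided. A loss of at least 2-fold was called for 1705 genes (12.9%), of at least 4-fold for 535 and of at least 8-fold for 191, while 136 genes were higher by at least 2-fold. In 4747 genes (35.9%) the 4 libraries at 6 h did not overlap the 4 at 0 h.

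**Figure D1:**
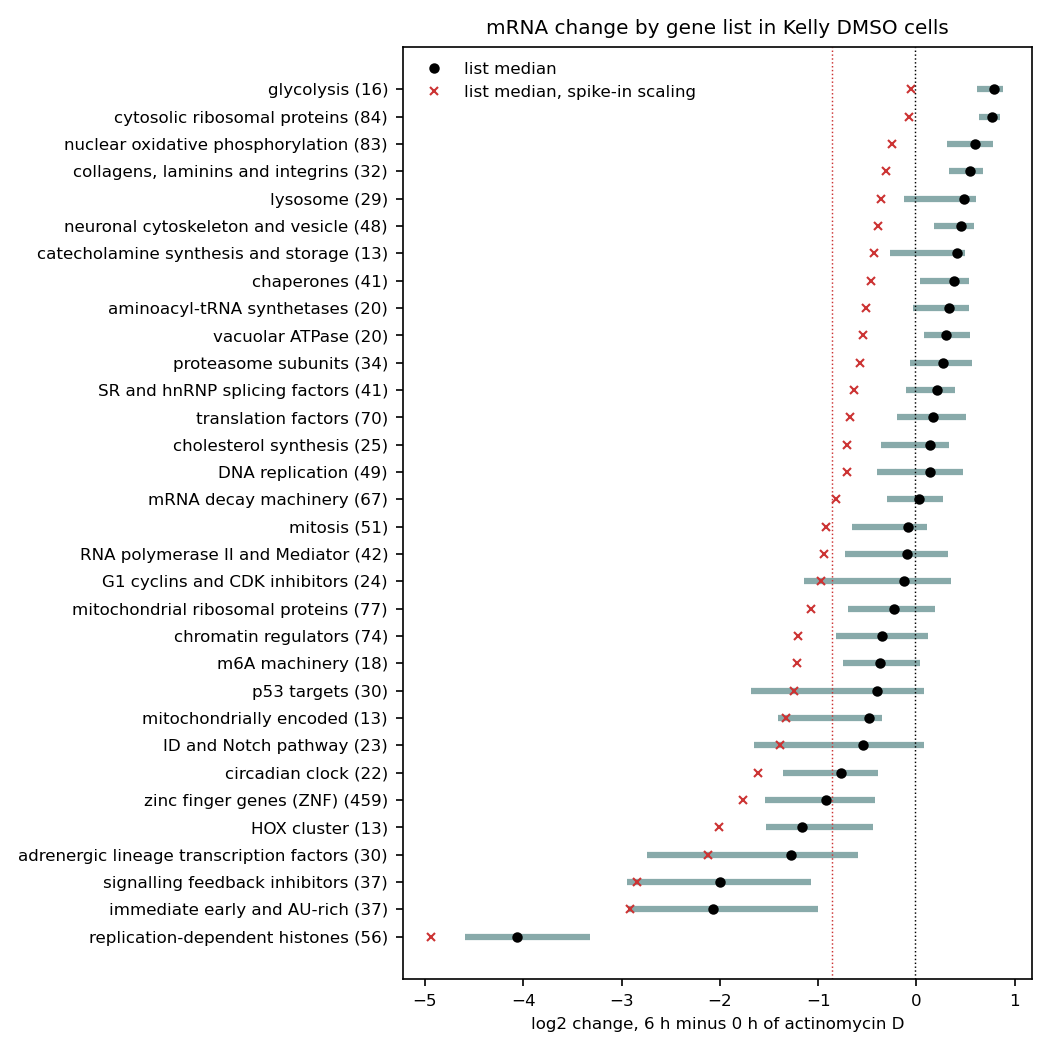
Median log2 change (6 h against 0 h, TMM) of each gene list as a dot, with the interquartile range of its tested members as a bar and the median on the spike-in scale as a red cross. Dotted lines mark the medians of all genes tested on each scale, −0.02 and −0.86. Replication-dependent histones lie farthest to the left at −4.06, and glycolysis and ribosomal protein genes lie to the right of the typical mRNA at 0.79 and 0.77, where the spike-in medians are −0.05 and −0.08.

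The fastest losses were those of replication-dependent histone mRNAs, and the sequence they share is therefore shown first. Each window below is 30 bases of the reference (GRCh38, GENCODE 44 transcripts), 5′ to 3′ on the coding strand, with the 16-base stem-loop in capitals. The windows were chosen to show the range of the change, from H3C7 (log2 change −10.46) to H4C3 (−1.39), and H2AX as a gene outside the list.
H3C7, chr6:26250138-26250167, minus strand: aaccaaaGGCTCTTTTCAGAGCCaccaaca
H1-5, chr6:27866790-27866819, minus strand: ccccaaaGGCTCTTTTCAGAGCCacccaga
H2BC11, chr6:27132314-27132343, minus strand: ccctaacGGCTCTTTTAAGAGCCacccatg
H4C9, chr6:27139647-27139676, plus strand: ctaaaaaGGCCCTTTTTAGGGCCcctaagc
H4C13, chr6:27873146-27873175, minus strand: cctcaaaGGCCCTTCTCAGGGCCacccatg
H4C3, chr6:26104310-26104339, plus strand: acccaaaGGCCCTTTTCAGGGCCgctcaca
H2AX, chr11:119094891-119094920, minus strand: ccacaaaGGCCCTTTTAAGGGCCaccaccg

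The histone stem-loop was searched for on the coding strand in the 150 bases after the stop codon, by the conserved pattern of its stem and T-rich loop, without requiring that the stem pairs. It was found in 53 of the 53 tested histone genes with an annotated stop codon, at a median of 36 bases after it (23 to 68), in 8 distinct versions. Of 12881 other genes with a stop codon, 2 matched the pattern (0.0155%), H2AX and BTBD10. The match in BTBD10 lay 130 bases after the stop codon, and its arms do not pair fully. Histones that were lost fast and those lost slowly carried the stem-loop alike, H1-5 and H4C3 included. A match describes these letters only.

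Of 69 replication-dependent histone genes on the list, 56 passed the filter on low counts, 42 of them on chromosome 6 and 13 on chromosome 1. At 6 h 54 of the 56 were lower and 0 higher, beside 23.8% lower over all genes, with a median log2 change of −4.06 (6.00% of the 0 h level), and −4.94 on the spike-in scale. The same number, 54, had no overlap between the 4 libraries at 0 h and the 4 at 6 h, beside 35.9% of all genes tested. Summed over the list, histone mRNA made up 5504 to 8416 CPM at 0 h and 324 to 615 CPM at 6 h. Histones were 38 of the 100 genes with the lowest log2 change among those at 10 CPM or more at 0 h. The 2 not called were H1-6 (log2 −2.49, adjusted p = 0.0768) and H3C14 (−3.06, adjusted p = 0.0581). The libraries were poly(A)-selected, so what was counted is the part of histone mRNA that passed this selection, and its share of all histone mRNA is not known.

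H1-5, a linker histone, stood at 1134 and 1122 CPM in the 3-day libraries at 0 h and at 14.2 and 10.8 CPM at 6 h. In the 6-day libraries it went from 683 and 658 CPM to 20.9 and 17.5 CPM. All 4 libraries at 6 h were far below all 4 at 0 h, and the log2 change was −5.78 (SE 0.19, adjusted p = 3.62e-15), or 1.82% left. At 3 h 3.11% was left, so most of the loss had occurred by then. The linker histone H1-4 fell by 5.62 on the log2 scale and the core histone H3C2 by 5.36. H3C7 had 2377 counts over the 4 libraries at 0 h and 1 at 6 h, a ratio of 2072 with a 95% exact interval of 372 to 81885 that covers counting error only. H4C3 changed least: 148, 154, 134 and 113 CPM at 0 h against 43.3, 47.4, 56.7 and 62.5 CPM at 6 h, with 38.2% left.

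Histone genes that are expressed outside S phase from polyadenylated mRNA behaved otherwise. These genes were picked after their values were seen. H3-3A, which encodes the replacement histone H3.3, was at 374, 350, 311 and 299 CPM at 0 h and at 643, 611, 478 and 486 CPM at 6 h, a log2 change of 0.73 (SE 0.06, adjusted p = 1.14e-09), and −0.12 on the spike-in scale. MACROH2A2 (0.71, −0.13 by spike-in) and MACROH2A1 (0.45, −0.40 by spike-in) were also higher relative to the typical mRNA, while H3-3B (−0.07) was not called. H2AX, the variant whose phosphorylation marks DNA breaks, is known to make both a stem-loop and a polyadenylated mRNA. It fell from 96.3, 101, 59.5 and 61.3 CPM to 25.6, 18.9, 23.4 and 14.6 CPM (log2 −1.91, SE 0.16, adjusted p = 2.92e-09), less than the histone median. BTBD10, the other gene that matched the pattern but without full pairing, had a log2 change of −0.28 (adjusted p = 0.310).

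**Figure D2:**
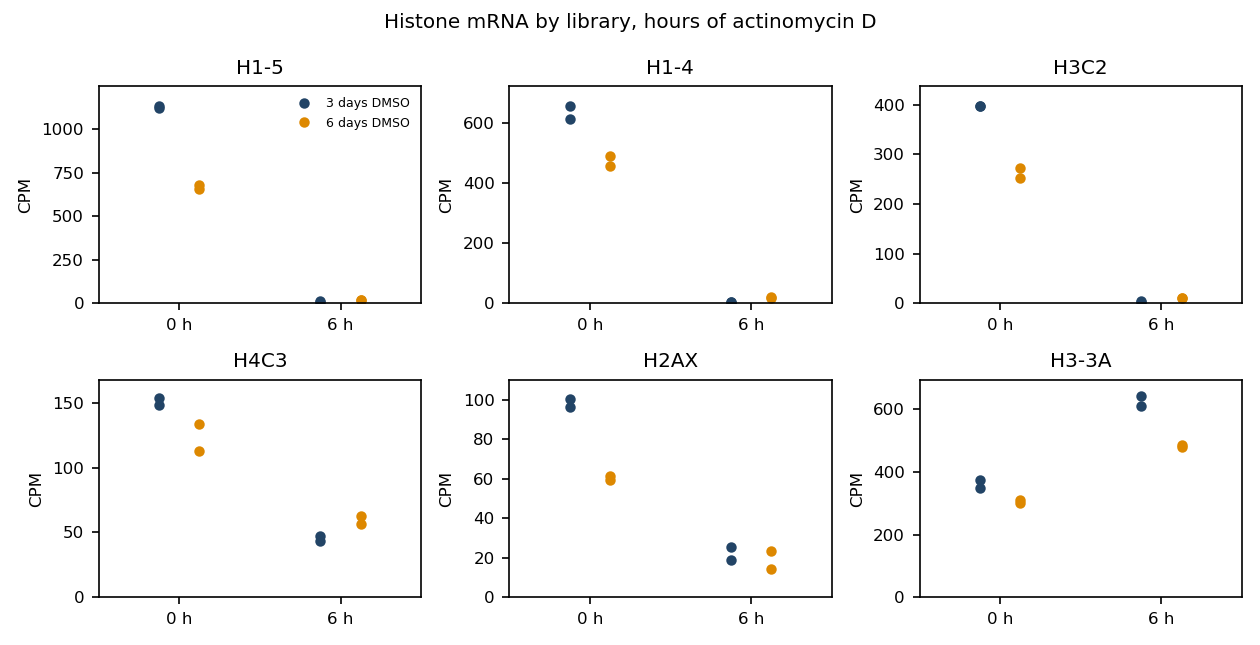
Level in CPM (linear axes from 0) of 6 histone genes in each library at 0 h and 6 h of actinomycin D, 1 point a library, with blue for 3 days and orange for 6 days in DMSO. H1-5, H1-4 and H3C2 drop close to 0, H4C3 and H2AX keep part of their level, and H3-3A lies higher at 6 h on this scale, by 0.73 in log2, against −0.12 on the spike-in scale.

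Early-response genes, many of which carry AU-rich elements in the 3′ UTR, formed the next group. AU-rich elements bind proteins such as those of the ZFP36 family, which recruit the enzymes that remove the poly(A) tail. Of 48 genes on the list 37 were tested, 25 were lower (67.6%, beside 23.8% over all genes), 0 higher and 12 not called, with a median log2 change of −2.07. TRIB1, a pseudokinase that guides proteins to degradation, fell by 4.12 on the log2 scale. Its level was 16, 13.6, 21.9 and 25.3 CPM at 0 h and 0.214, 1.04, 2.02 and 1.36 CPM at 6 h, without overlap. The level of KLF10, a TGF-beta-induced zinc finger factor, was 8.18% of that at 0 h after 6 h and 15% after 3 h. IER5, an early-response regulator, kept 13.1% and the anti-apoptotic gene MCL1 29.6%. FOS, EGR1 and FOSB were at 0.451 to 2.33 CPM and were not called, which this depth does not resolve.

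The nonamer TTATTTATT, a core of AU-rich elements, was searched for on the coding strand of annotated 3′ UTRs, where overlapping matches occur in runs. It lay in 11 of the 37 tested genes of the list (29.7%) and in 9.60% of the 12939 tested genes with a matched transcript. Single windows of 29 bases (GRCh38, coding strand, nonamer in capitals) are shown for early-response genes and for lineage factors described below that were lower at 6 h.
DUSP1, chr5:172768643-172768671, minus strand: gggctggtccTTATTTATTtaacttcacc
IER5, chr1:181092443-181092471, plus strand: gtgtcttcctTTATTTATTtatttattta
ZFP36L2, chr2:43223448-43223476, minus strand: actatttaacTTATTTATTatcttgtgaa
ISL1, chr5:51394496-51394524, plus strand: aagtaatttaTTATTTATTgtcggaagac
INSM1, chr20:20370571-20370599, plus strand: tatttattctTTATTTATTtatattaatt

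Of the 11 early-response genes with the nonamer, PLK2, DUSP1, IER5, ZFP36L2 and FOSL2 were lower, and MAFF, PLK3, MAFK, ZFP36, ZFP36L1 and FOS were not called. Those with the nonamer were thus lower less often than the list as a whole, of which 67.6% were lower. Over all genes the nonamer went with a small shift: the median log2 change was 0.00 without it, −0.10 with 1 and −0.14 with more. In 3′ UTRs of 3293 bases or more, which hold 600 of the 1242 genes with the nonamer, there was no such shift, with −0.01 for genes with it and −0.02 for those without. In those of 1853 to 3292 bases the medians were −0.25 and −0.01. The Pumilio motif TGTANATA, searched in the same way, was present in 30.5% of the matched genes. Of genes without it 20.4% were lower at 6 h, against 30.1% with 1 and 31.1% with more. By length, in groups formed after seeing the data, 36.6% with it and 14.9% without were lower in 3′ UTRs of up to 432 bases, but 26.0% and 24.3% in those of 3293 or more. It was present in 17 of 30 adrenergic lineage factors.

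Inhibitors that switch off growth-factor, WNT, NF-kappaB and G-protein signalling were short-lived too. Of 37 tested, 29 were lower (78.4%, beside 23.8% over all genes) and 0 higher, with a median of −2.0. RGS16, which speeds GTP hydrolysis by G proteins, went from 60.7, 58.6, 33.9 and 36.3 CPM to 3.43, 1.25, 2.02 and 2.37 CPM (log2 −4.34). The ERK phosphatase DUSP6 fell by 4.26 and SPRY1, an inhibitor of receptor tyrosine kinase signalling, by 3.22. The WNT antagonist DKK1 had 582 counts at 0 h and 0 at 6 h, at least 169-fold lower when the 0 is set to a floor of 3 counts over the 4 libraries. Its level at 0 h was 16.7 and 16 CPM at 3 days and 1.88 and 2.49 CPM at 6 days. RGS4, much more abundant at 878 to 1145 CPM at 0 h, lost less, with 39.5% left. SOCS4 (−0.05) and SOCS7 (−0.15), of the cytokine-signalling suppressors, were not called.

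The transcription factors that define the adrenergic neuroblastoma state were mostly short-lived. Of 30 tested, 25 were lower at 6 h (83.3%, beside 23.8% over all genes) and 0 higher, with a median log2 change of −1.27. The 5 not called were SIX3, LMO3, PBX3, TLX2 and DACH1. GATA2, a zinc finger factor of the sympathetic lineage, fell from 1154, 1145, 791 and 763 CPM at 0 h to 132, 124, 102 and 107 CPM at 6 h. Its groups did not overlap, and the log2 change was −3.03 (SE 0.06, adjusted p = 3.45e-18). At 6 h 12.2% of its 0 h level was left, and at 3 h 27.1%. GATA3, its paralogue, retained 18.9% at 6 h. HAND1 had 11.9% left, and its level at 0 h was 282 and 269 CPM at 3 days but 113 and 112 CPM at 6 days. ISL1, a LIM homeodomain factor, retained 13.3% and INSM1, a zinc finger repressor of neuroendocrine cells, 13.8%. MYCN itself retained 10.6% (log2 −3.24, SE 0.11) and 14.2% at 3 h.

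HAND2, the other HAND gene, was at 926, 927, 1280 and 1259 CPM at 0 h and at 559, 560, 750 and 773 CPM at 6 h, with 60.2% left (log2 −0.73, SE 0.04, adjusted p = 1.82e-11). SOX11 likewise retained 66.3%. What was left of the called factors named here thus ran from 10.6% for MYCN to 66.3% for SOX11.

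The enzymes and storage proteins of catecholamine synthesis, the products of the sympathetic lineage, lay on the other side of the typical mRNA. Of 13 tested, 7 were higher and 1 lower, beside 22.4% higher over all genes, with a median of 0.41 against −0.43 on the spike-in scale. TH, the rate-limiting enzyme of the pathway, was at 388, 364, 338 and 321 CPM at 0 h and at 657, 689, 675 and 701 CPM at 6 h (log2 0.95, SE 0.06, adjusted p = 3.34e-11), and 0.11 with spike-in scaling. DBH, which makes noradrenaline from dopamine, had a log2 change of 0.85 (0.01 with spike-in scaling), and DDC, which makes dopamine, 0.49 (−0.35 with spike-in scaling). SLC18A2, the vesicle transporter, is uncertain because 52.3% of its exon length overlaps PDZD8. The 1 lower was CYB561, an electron carrier of the vesicle membrane (−0.27). Its call was lost in 3 of the 8 fits without 1 library.

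**Figure D3:**
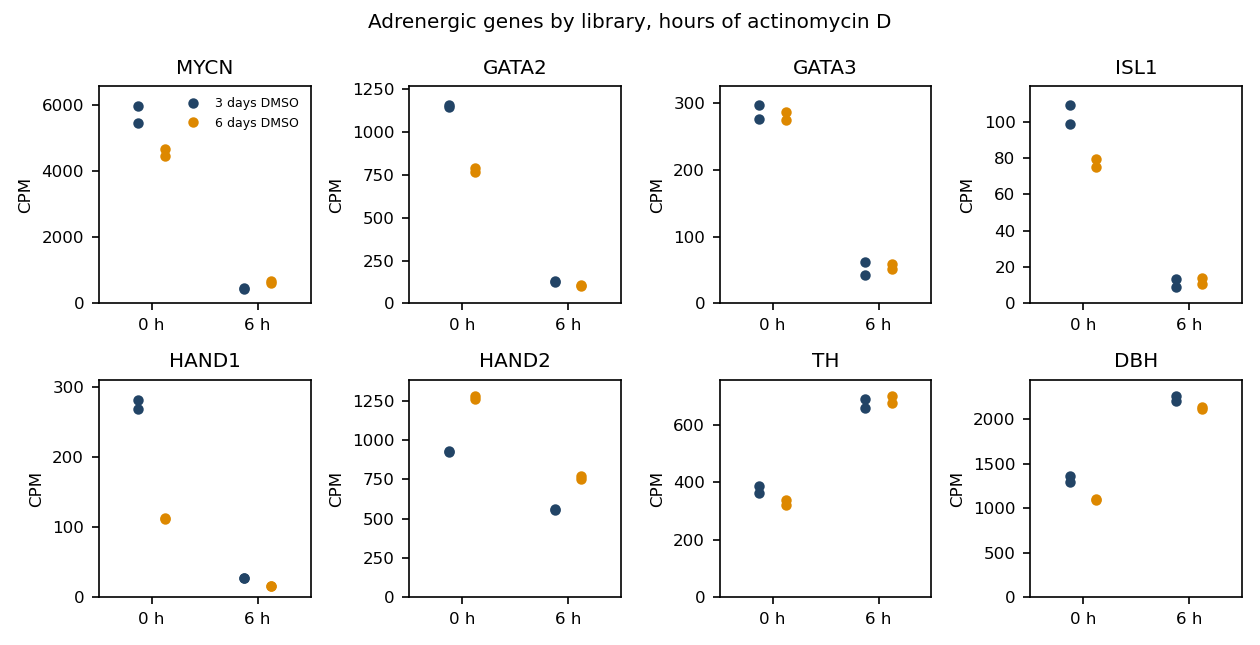
Level in CPM (linear axes from 0) of 6 lineage transcription factors (MYCN, GATA2, GATA3, ISL1, HAND1, HAND2) and the enzymes TH and DBH in each library at 0 h and 6 h, 1 point a library, with blue for 3 days and orange for 6 days. MYCN, GATA2, GATA3, ISL1 and HAND1 fall to a small part of their level and HAND2 to 60.2%, while TH and DBH lie higher at 6 h, by 0.95 and 0.85 in log2 against 0.11 and 0.01 on the spike-in scale.

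The shares of other regulators are to be read against 23.8% lower and 22.4% higher over all genes. Zinc finger genes named ZNF, the largest family of DNA-binding repressors, were lower in 280 (61.0%) and higher in 11 of 459 tested, with a median of −0.92. Of 13 HOX genes tested 7 were lower and 0 higher (median −1.17), led by HOXD13 with 11.7% left. The HOX median depends on the low-count members: it was 1.41 over 33 genes with no filter and 0.27 over 25 in a fit of 24 Kelly libraries, with 7 lower and 0 higher in both. Among clock genes 14 of 22 were lower and 1 higher (median −0.77). The repressor BHLHE40 fell by 2.72 there. In the ID and Notch list 9 of 23 were lower and 2 higher. ID3, an inhibitor of basic helix-loop-helix factors, fell by 4.51 on the log2 scale and ID2 fell by 3.21. ID1 (−2.77) was called as well, but the call was lost in 5 of 8 fits without 1 library. Of 74 chromatin regulators 39 were lower and 14 higher, with the acetyltransferase EP300 falling from 360, 350, 300 and 311 CPM to 59.7, 67.1, 68.5 and 60.9 CPM.

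Of 18 genes of the m6A machinery tested, 12 were lower (66.7%, beside 23.8% over all genes) and 3 higher (16.7%, beside 22.4%), with a median of −0.37. YTHDF2, a reader of m6A that recruits deadenylases, was at 185, 176, 145 and 147 CPM at 0 h and at 32.0, 23.6, 19.7 and 26.5 CPM at 6 h, with 15.6% left. WTAP, which anchors the methyltransferase, retained 25.7% and METTL14, its non-catalytic partner, 59.1%. METTL3, the catalytic subunit and target of STM2457, was at 46.0 to 55.6 CPM at 0 h and 45.9 to 62.5 CPM at 6 h, with a log2 change of 0.07 (SE 0.13, adjusted p = 0.684). The demethylase FTO was at 0.56, and at −0.29 on the spike-in scale.

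Cell-cycle genes were split. Of 51 mitotic genes 20 were lower (39.2%, beside 23.8% over all genes) and 8 higher (15.7%, beside 22.4%), with a median of −0.08, and FBXO5, an inhibitor of the anaphase-promoting complex, retained 7.43%. The mitotic kinase AURKA retained 26.2%. Of 24 cyclins and CDK inhibitors of G1 phase 9 were lower, CDKN1B (−1.76), CCNE1 (−1.53) and CDKN1A (−1.47) most, and 6 higher. Of 49 DNA replication genes 13 were lower (26.5%, near the 23.8% over all genes) and 21 higher (42.9%, beside 22.4%), with a median of 0.14. Library-size scaling gave 19 lower and 13 higher with a median of −0.04, and the spike-in scale −0.71. The mRNA decay machinery had 18 lower and 18 higher of 67 (26.9% each, near the shares over all genes), with a median of 0.02. Relative to that of all genes its median was 0.04 and changed sign in 5 of 20 alternatives. TOB1, which recruits the deadenylase complex, fell by 2.77.

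Of 30 p53 targets tested 13 were lower (43.3%, beside 23.8% over all genes) and 4 higher (13.3%, beside 22.4%). Of 42 subunits of RNA polymerase II and Mediator 11 were lower (26.2%) and 12 higher (28.6%), both near the shares over all genes. For 77 mitochondrial ribosomal proteins 29 were lower (37.7%) and 13 higher (16.9%), with a median of −0.23, and MRPL44, a large-subunit protein, retained 12.1%. Cholesterol synthesis genes had 9 lower (36%) and 7 higher (28%) of 25.

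The 13 mitochondrially encoded mRNAs are copied from the mitochondrial genome by a separate polymerase. Of these 12 were lower (92.3%, beside 23.8% over all genes) and 1 was higher, with a median of −0.48 and a wide spread. MT-ND1, a subunit of complex I, went from 4892, 4387, 3878 and 4165 CPM to 528, 500, 625 and 641 CPM (log2 −2.92, SE 0.07, adjusted p = 6.26e-17). MT-ND2 (−2.02), MT-ND5 (−1.76), MT-ND6 (−1.41) and MT-ND3 (−1.37) followed, while MT-ND4 fell by 0.25. MT-CO1, the most abundant of those given here, was the 1 that was higher (0.15), and on the spike-in scale it was lower (−0.69). What remained of these 13 differed widely, from 13.2% for MT-ND1 to 111% for MT-CO1 relative to the typical mRNA.

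Long-lived groups were those of basic metabolism, protein synthesis and neuronal structure. Of 84 cytosolic ribosomal protein genes 75 were higher and 4 lower, beside 22.4% higher over all genes, with a median of 0.77 against −0.08 on the spike-in scale. RPS2, of the small subunit, was at 1885, 1973, 1947 and 1891 CPM at 0 h and 3930, 3731, 3826 and 3860 CPM at 6 h, a log2 change of 1.00 (0.15 by spike-in). Among the 4 lower were RPL36A (−2.15), RPS10 (−1.95) and RPL22L1 (−0.34), the last a paralogue of RPL22. RPL36A and RPS10 are uncertain because 14.1% and 40.3% of their exon length overlaps another gene.

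The counts of higher genes below are to be read against 22.4% over all genes, and against 53.7% in the fifth of genes with the highest level at 0 h (82.2 CPM or more). Glycolysis had 15 of 16 genes (93.8%) higher and 0 lower (median 0.79, −0.05 on the spike-in scale). PFKL, a phosphofructokinase, had a log2 change of 1.04 (0.20 by spike-in), and HK2 (0.10) was the 1 gene not called. Nuclear-encoded subunits of oxidative phosphorylation had 60 of 83 (72.3%) higher and 2 lower (median 0.59, −0.25 on the spike-in scale), and the lower ones were the Rieske protein UQCRFS1 (32.4% left) and NDUFV2 (−0.29). For lysosomal genes 17 of 29 (58.6%) were higher and 2 lower (median 0.48, −0.36 on the spike-in scale). For collagens, laminins and integrins it was 20 of 32 (62.5%) and 1 (median 0.54, −0.31 on the spike-in scale).

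Of 48 genes of the neuronal cytoskeleton and synaptic vesicles 34 were higher (70.8%, beside 22.4% over all genes) and 3 lower (median 0.46, −0.39 on the spike-in scale). The complexin CPLX1, which regulates vesicle fusion, was at 28.0, 26.8, 46.6 and 35.9 CPM at 0 h and 58.8, 48.3, 70.4 and 80.7 CPM at 6 h, a log2 change of 0.92 (0.07 by spike-in). The lower ones were RAB3A (−1.55), MAP1A (−0.86) and SYT1 (−0.29). Chaperones had 27 of 41 (65.9%) higher and 7 lower (median 0.38, −0.46 on the spike-in scale). HSP90AA1 was higher (0.90, 0.06 by spike-in), and the heat-inducible DNAJB1 fell by 2.32 and BAG3 by 1.48. Translation factors (34 of 70 higher, 11 lower, median 0.17), splicing factors (20 of 41 and 10, 0.21), proteasome subunits (15 of 34 and 6, 0.27), the vacuolar ATPase (10 of 20 and 1, 0.30) and aminoacyl-tRNA synthetases (10 of 20 and 3, 0.33) had positive medians that were below 0 on the spike-in scale, at −0.67, −0.63, −0.58, −0.55 and −0.52.

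By the fixed rule the 12 lowest genes at 10 CPM or more were H3C7, H1-3, H1-5, H2AC13, H1-4, H3C2, KCNJ8, H3C12, RPUSD2, H2BC11, INTS5 and H2AC4. KCNJ8, a potassium channel subunit, went from 31.6, 23.9, 20.2 and 14.3 CPM to 1.86, 0.348, 0.269 and 0.474 CPM, and RPUSD2, a pseudouridine synthase family member, retained 3.24%. H3C12 and INTS5 are uncertain because 44.7% and 9.32% of their exon length overlaps another gene. The 12 highest were WDR90, ARHGAP33, LENG8, ANKRD28, MAN2C1, FAM49A, ALPL, CDK5RAP3, MAMDC4, TMEM145, GRIN1 and PACS2, between 1.52 and 1.19, and between 0.68 and 0.35 by spike-in. LENG8 was at 143, 138, 160 and 168 CPM at 0 h and 360, 415, 375 and 380 CPM at 6 h (log2 1.33, 0.49 on the spike-in scale). ANKRD28 rested on 1 library, 749 CPM in the 6-day 6 h replicate 2 against 58.9 to 79.7 CPM in the other 7. Without that library its change, less the median of all genes, was −0.048, and its call was lost in 3 of 8 such fits. MAN2C1 overlaps NEIL1 over 20.1% of its exon length. Of the 100 lowest genes outside the histone list 36 of 99 had 1 or 2 exons, against 2 of 98 among the 100 highest. Over all tested genes with a matched transcript it was 882 of 12952, with histones and mitochondrially encoded genes included.

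The number of exons of the canonical transcript went with the change. Over 12886 genes without histones, genes of 1 exon (235) had a median log2 change of −1.02, genes of 2 (581) −0.95, of 3 (748) −0.48, of 4 to 5 (1936) −0.19, of 6 to 10 (3774) −0.02, of 11 to 20 (3724) 0.10 and of 21 or more (1888) 0.19. Of the single-exon genes 49.4% were lower and 5.53% higher, and of those with 21 or more 14.7% were lower and 33.3% higher. Spearman's rho across genes was 0.27, given as a description since genes are not independent. Without the zinc finger genes, the 793 genes of 1 or 2 exons had a median of −0.97 and 47.8% of them were lower. Among genes at 10 CPM or more at 0 h, the median was −1.01 for the 440 genes of 1 or 2 exons and 0.17 for the 1509 of 21 or more.

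**Figure D4:**
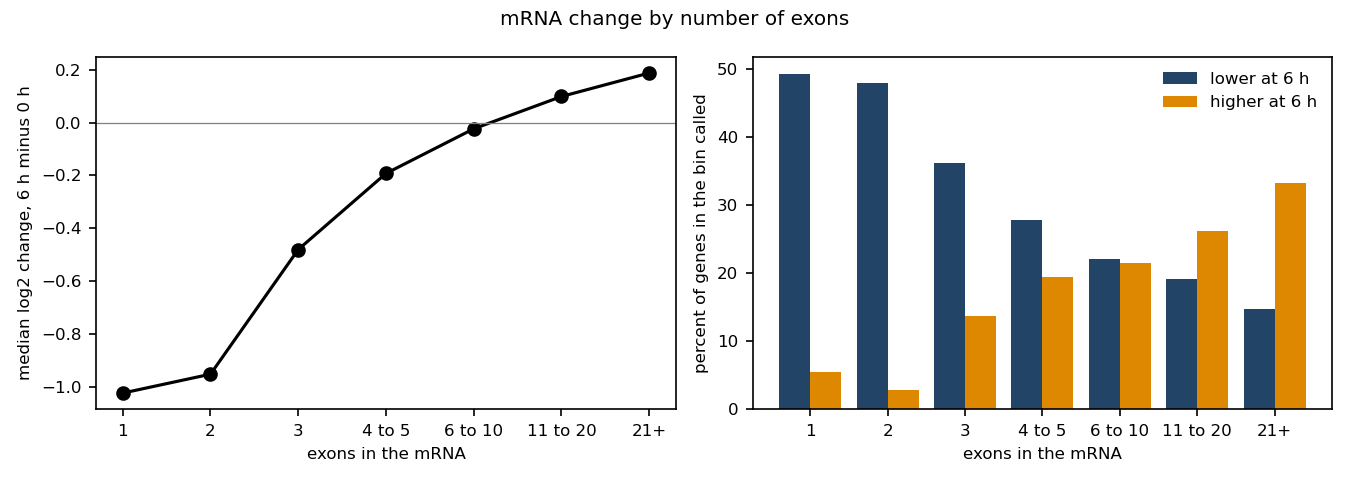
Left, median log2 change (6 h against 0 h) of genes by exon number of the canonical transcript, histones left out. Right, percent of the genes in each bin that were lower or higher at an adjusted p under 0.05. The median goes from −1.02 at 1 exon to 0.19 at 21 or more, and the percent lower from 49.4 to 14.7.

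Decay was then compared between the durations of DMSO. The change differed between 6 and 3 days for 64 genes (0.484%), 52 with a smaller loss or larger value at 6 days and 12 the reverse. On the spike-in scale 6250 were called, 62 in the first direction and 6188 in the second, so most of the called differences there were larger losses at 6 days. Histones made up 25 of the 64, all smaller in loss at 6 days, and the list's median was −5.07 at 3 days and −3.26 at 6 days. H4C2 had a difference of 3.30 (2.48 on the spike-in scale) and H1-5 of 1.37 (0.55). Lower levels at 0 h went with this, since summed histone mRNA was 8118 and 8416 CPM at 3 days and 5858 and 5504 CPM at 6 days, and the part of this in the difference was not tested. MYCN differed by 0.85, but by 0.03 on the spike-in scale (adjusted p = 0.690). The duration difference was called for 23 to 146 genes when 1 library was left out. It was 23 and 30 without 6-day 0 h replicate 1 or 2, 33 and 37 without 3-day 0 h replicate 1 or 2, and 146 without 3-day 6 h replicate 2. The 64 kept their sign in each of these fits, but they were chosen in the full fit, which shares nearly all its libraries with them. On the spike-in scale 54 of the 64 kept their sign. With replicate numbers as a block 45 were called, and DESeq2 called 263.

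**Figure D5:**
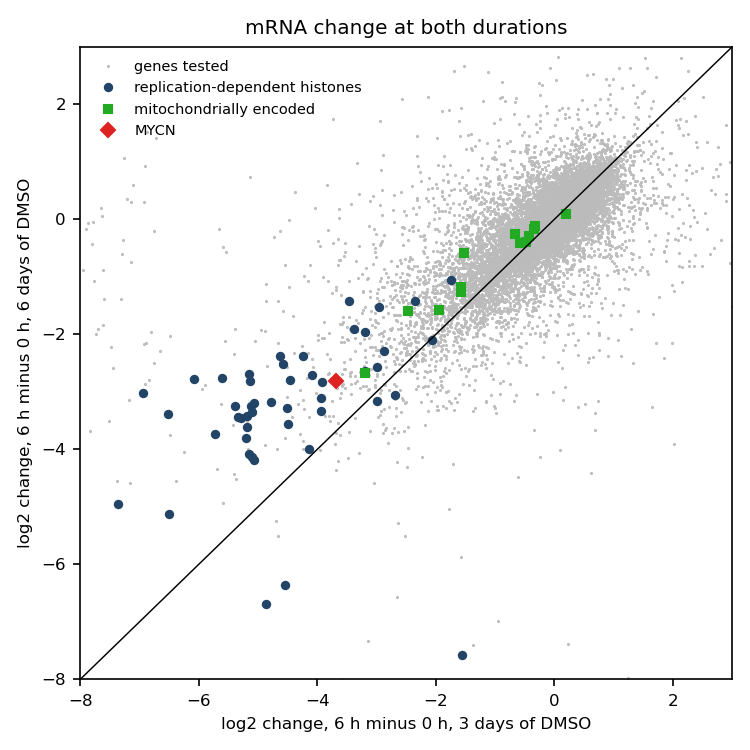
Log2 change (6 h against 0 h) at 3 days on the x axis against 6 days on the y axis, 1 point a gene, for 12795 of 12889 genes with both values between −8 and 3, with histones, mitochondrially encoded genes and MYCN marked. Most histones lie above the diagonal, with medians of −5.07 at 3 days and −3.26 at 6 days.

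Against NGP, the change differed for 454 of 14167 genes (3.2%), 295 higher in NGP and 159 lower. Of 51 mitotic genes 19 were called, all with a positive difference, among them FBXO5 (2.34) and AURKA (1.27). The median log2 change of the mitotic list was −0.08 in Kelly and 0.24 in NGP. Of 13 mitochondrially encoded genes 11 were called in the same direction, with MT-ND1 at −2.92 in Kelly and −0.98 in NGP. On the spike-in scale 80 genes were called in all, 2 of them mitotic and 1 mitochondrial, and the mitotic count was 9 without NGP 3-day 6 h replicate 1. The replicate block gave 294 genes. Among lineage factors GATA3 (1.00) and ISL1 (0.83) were lost less in NGP and HAND2 more, with −0.73 in Kelly and −1.55 in NGP. On the spike-in scale GATA3 (0.90, adjusted p = 0.0606) and ISL1 (0.74, adjusted p = 0.255) lost the call, and HAND2 (−0.92, adjusted p = 0.0309) kept it. For MYCN the difference was −0.00 (SE 0.15, adjusted p = 1.00).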

How the data were processed

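The deposited values are raw counts of paired-end fragments over exons, summed by gene name by the authors with featureCounts 1.5.3, per the file headers. The headers give the protein-coding genes of GENCODE 33 (19923 names, 18 of them on 2 chromosomes and counted together) and 92 ERCC sequences, and no strand option. Libraries were made from bead-selected poly(A) RNA with a SMART cDNA kit, per the labels' protocols. The submitters' processing notes name the aligner HISAT2 2.1.0, the trimmer Trimmomatic 0.36, FastQC 0.11.5, Subread 1.5.3 and the build GRCh38 (hg38).

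The deposited counts were tested with edgeR 4.0.16 (quasi-likelihood, TMM, limma 3.58.1, R 4.3.3) after filterByExpr (minimum count 10, minimum total 15), with duration as a covariate and Benjamini-Hochberg adjustment over the genes tested (threshold 0.05). Each SE is the size of the log2 change over the root of its F statistic. The scripts were tested on simulated data. Differences between durations and lines were interaction terms. ERCC, library-size and RLE scaling, DESeq2 1.42.0, no filter, no covariate, 1 duration only, a replicate block and leaving out each library were alternatives. ERCC scaling within 1 duration and the 2 alternative exon-number groupings were added after seeing the data.

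The members and lists were chosen with earlier results of these data known. Named genes were the 12 lowest and 12 highest called genes at 10 CPM or more at 0 h, up to 3 called genes of each list in its main direction, and a few fixed genes, and any others were chosen after their values were seen. Genes sharing 5% or more of their exon length with another are given as uncertain, since the counting of overlaps is not stated. mRNA features come from GENCODE 44 canonical transcripts, matched by name for 97.8% of the tested genes. Replicate numbers were not used to pair the libraries in the main fit. Across genes, deviations of same-numbered libraries correlated at 0.00686 (3 days) and −0.00881 (6 days). With 2 libraries in a group this cannot decide whether the libraries were paired. Intervals cover counting error only. Some genes that the rule or lists hold are not reported here.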

Additional observations from a re-analysis of the deposited data

Results flagged for a closer look

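The change after 6 h of actinomycin D was tested for a difference between durations and between lines, and genes singled out by the naming rule or in the text whose difference passed are given here as log2 values. Between 6 and 3 days 64 genes passed. The difference (6 days minus 3 days) was 2.41 for H1-3, 1.37 for H1-5, 2.84 for H2AC13, 2.57 for H1-4, 1.83 for H3C2, 2.73 for H2AC4, 3.30 for H4C2 and 1.46 for H4C13, all histones. It was 0.85 for MYCN, 2.04 for ID2, 1.84 for BTG2 (an antiproliferative early-response gene), 0.46 for RGS4 and 0.21 for GAPDH. For the mitochondrial mRNAs it was 0.51 for MT-ND1, 0.87 for MT-ND2 and 0.35 for MT-ND5. FAM49A (−1.02) and the granule protein CHGA (−0.23) had the opposite sign. On the spike-in scale 14 of these 18 genes kept their sign. GAPDH (−0.61), MT-ND1 (−0.31), MT-ND5 (−0.47) and RGS4 (−0.36) turned negative and were called there, while MYCN (0.03, adjusted p = 0.690) and MT-ND2 (0.04, adjusted p = 0.708) lost the call.

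Between the lines 454 genes passed. The difference (NGP minus Kelly) was positive for H3C7 (4.34), KCNJ8 (2.17), INTS5 (2.86), DKK1 (7.36), FBXO5 (2.34), AURKA (1.27), CDKN1B (0.79), CDKN1A (0.69), EP300 (0.49), TOB1 (1.09), EXOSC9 (0.80), YTHDF2 (0.63), WTAP (0.61), MRPL18 (1.00), MT-ND1 (1.92), MT-ND5 (0.64), ISL1 (0.83), GATA3 (1.00), RND3 (1.79), H3-3B (0.38), GATA2 (0.77), RAB3A (1.82), MT-CO1 (0.43), MT-ND4 (0.67) and MT-ND6 (0.58). The values of H3C7 and DKK1 rest on 1 and 0 counts at 6 h in Kelly and depend on the prior count. The difference was negative for H2BC11 (−2.25), H2AX (−1.14), FAM49A (−1.24), DBH (−0.71), HAND2 (−0.83), PSMC1 (−0.41), H4C3 (−0.996) and DDIT4 (−1.39). On the spike-in scale these 33 genes kept their sign and 13 were called.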

How the results depend on the processing

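The count of genes that differed between 6 h and 0 h was 5495 to 6034 without any 1 of the libraries, and 5920 with replicate numbers as a block. Spike-in scaling moved the directions: 7914 lower and 18 higher over both durations, 529 higher within 3 days, and 10726 called within 6 days (10642 lower, 84 higher). Library-size scaling gave 1810 higher. For the difference between durations, DESeq2 gave 263 (110 negative, 153 positive), spike-in scaling 6250 (6188 negative), and the replicate block 45, of which 2 were negative. Leaving out 1 library gave 23 to 146 (0 to 46 negative, 23 to 100 positive). For NGP against Kelly, spike-in scaling gave 80 (63 negative, 17 positive), the replicate block 294 (103 negative, 191 positive) and DESeq2 292 negative. Leaving out 1 library gave 296 to 465 (95 to 182 negative, 169 to 312 positive). ANKRD28 reversed to −0.051 at 3 days only, and ran from −0.048 to 1.78 without 1 library. Over the members tested in the main comparison, list medians relative to that of all genes kept their sign under the 20 alternatives compared, except the mRNA decay machinery. Over every member that an alternative tests, the HOX cluster turned too, to 1.34 with no filter and 0.22 in a fit of 24 Kelly libraries, where low-count members enter. Each of these list medians is less that of all genes in the same fit, so a change of scaling alone could hardly turn its sign. Without that subtraction, spike-in scaling took glycolysis from 0.79 to −0.05, chaperones from 0.38 to −0.46 and DNA replication from 0.14 to −0.71. Among named genes 2783 of the values recomputed kept their call status and 130 lost the call, 61 of these under spike-in scaling. Direction was compared for called genes only, on the change less the median of all genes in the same fit. A gene called higher with TMM and lower with spike-in scaling could thus count as kept. Where the cause is not the construction of the alternative, it was not tested.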
